A study of Mus musculus with 4 samples.

Results

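Myl4, Myl7, Sln, Bmp10, Dkk3 and Stard10, a set of 6 genes known for their expression in atrial myocardium, were described in libraries of mouse left ventricle. They were found by symbol among the 32285 genes of the deposited matrices, and all 6 were present under a single identifier. The study made 4 droplet libraries on the 10× Chromium system with a 3′ kit, 1 library per condition, from left ventricle of male wild-type C57BL/6J mice. Young mice were 3 to 5 months old and aged mice 24 to 26 months old. The young I/R and aged I/R mice had 45 min of ischemia by surgery on the left anterior descending coronary artery (LAD) and 24 h of reperfusion. The young sham and aged sham mice were named as sham in the titles, while their treatment label read healthy without alteration. The molecule was labelled as nuclear RNA where the study describes single cells, and the number of mice behind a library was not given in the sources used here. Values are unique molecular identifiers (UMIs), each a captured RNA molecule, summed over all barcodes of a library and given as counts per 1000000 UMIs (CPM). With 1 library per condition no test was possible and no p-value is given. The 95% intervals were exact Poisson for a sum or a number of barcodes and exact conditional binomial for a ratio of levels. They cover counting error only, so a difference outside them is a difference between 2 libraries and not between conditions.

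The libraries held 91124 to 102883 barcodes and 25836175 to 66767829 UMIs, and the median UMIs per barcode were 244 in young sham against 374 in young I/R, and 391 in aged sham against 675 in aged I/R. Values given as 4 in a row keep this order of libraries. Young sham was the shallowest library and aged I/R the deepest, so co-detection was compared at a common depth. Between 7.44% and 7.92% of the barcodes of a library also occurred in another library. A barcode may hold no cell, so shares of barcodes are not shares of cells. Ventricular genes were abundant in every library: the 8 genes of a ventricular list summed to 15824 CPM in young sham beside 16249 in young I/R, and 20179.6 in aged sham beside 15107 in aged I/R. Myl2, the ventricular regulatory light chain, was found in 72.0% of the young sham barcodes at 200 UMIs per barcode and in 76.9%, 84.8% and 73.8% of those of the other libraries.

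Working cardiomyocytes of the atria and ventricles use different members of the same protein families. The myosin motor carries a regulatory and an essential light chain, which in the atria are the products of Myl7 and Myl4 and in the adult ventricle those of Myl2 and Myl3. Sln encodes sarcolipin, a small membrane protein that restrains the calcium pump of the sarcoplasmic reticulum and takes in the atria the place that phospholamban (Pln) holds in the ventricle. Bmp10 encodes a secreted ligand of the bone morphogenetic protein family, which in the adult is made mainly by the right atrium and acts on endothelial cells. Dkk3 encodes a secreted glycoprotein of the Dickkopf family, and Stard10 a lipid transfer protein of the START family. Myl4 and Myl7 are also expressed in the ventricle before birth.

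Myl4 and Myl7 lie on the same chromosome, as do Dkk3 and Stard10, and no gene of the set lies beside another. On GRCm38 (mm10) the annotation places Myl4 at chr11:104550663-104595753 on the plus strand, Myl7 at chr11:5896637-5898782 on the minus strand, Sln at chr9:53850164-53854560 on the plus strand, Bmp10 at chr6:87428994-87437677 on the plus strand, Dkk3 at chr7:112116017-112159057 on the minus strand and Stard10 at chr7:101317086-101346626 on the plus strand, all as protein-coding genes. The span of Myl4 overlaps 4 other annotated genes and that of Stard10 2. Those among them with a row in the matrices, Gm11665, Gm22000 and Gm20476, all on the opposite strand, had at most 10 UMIs in any library, so reads divided between strands could move few counts there.

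Promoter sequences of 4 of the 6 genes were matched by symbol in RefSeq (build GRCm38.p6), namely those of Myl4, Myl7, Bmp10 and Stard10. They are shown because Myl4 and Myl7 differed between the I/R and sham libraries in the same direction and shared barcodes, and Bmp10 and Stard10 are the other members that were matched. Each run gives the 150 bases before the annotated start, 5′ to 3′ on the strand of the gene, and capitals mark matches on either strand to GATAA (the core bound by GATA factors), AAGTG (a core bound by cardiac homeobox factors), AGGTGT (a T-box core), the TATA box letters TATAAA, the CArG box (bound by serum response factor) or the MEF2 site.
Myl4, chr11:104550513-104550662, plus strand: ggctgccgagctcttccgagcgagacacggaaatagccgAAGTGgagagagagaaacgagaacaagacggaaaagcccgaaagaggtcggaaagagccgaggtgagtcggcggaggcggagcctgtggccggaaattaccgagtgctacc
Myl7, chr11:5898783-5898932, minus strand: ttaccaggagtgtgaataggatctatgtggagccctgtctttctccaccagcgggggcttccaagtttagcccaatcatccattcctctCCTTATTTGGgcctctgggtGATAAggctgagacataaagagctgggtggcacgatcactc
Bmp10, chr6:87428844-87428993, plus strand: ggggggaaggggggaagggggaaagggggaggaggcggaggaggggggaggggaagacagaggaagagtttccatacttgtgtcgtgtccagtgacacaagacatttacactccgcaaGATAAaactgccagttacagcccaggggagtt
Stard10, chr7:101316936-101317085, plus strand: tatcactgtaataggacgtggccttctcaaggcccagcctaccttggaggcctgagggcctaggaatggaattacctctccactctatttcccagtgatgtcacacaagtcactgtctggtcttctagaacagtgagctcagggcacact
The Myl7 promoter held a CArG box between 61 and 52 bases before the start, which 0.916% of the 32851 promoter windows of the same length hold, and GATAA between 41 and 37 bases before it. GATAA also lay between 32 and 28 bases before the start of Bmp10 and occurs in 13.3% of all windows. The Myl4 window held AAGTG between 111 and 107 bases before the start, a motif found in 26.4% of all windows, and no match to the others. None of the motifs matched in the Stard10 window, and 3 motifs matched in none of the 4, namely AGGTGT (6.86% of all windows), TATAAA (7.57%) and the MEF2 site (1.67%). A match is a run of letters and not a bound site.

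The levels of both light chain genes and of Sln were highest in the young I/R library and lowest in the aged I/R library. Myl4 was measured at 48.2 CPM in young sham against 87.2 in young I/R, and 38.6 in aged sham against 34.9 in aged I/R, from 1246, 3459, 1596 and 2333 UMIs. None of these 4 values lay within the interval of another, the closest being aged sham (36.7 to 40.5) and aged I/R (33.5 to 36.4). Myl7 was measured at 48.8, 97.6, 46.9 and 32.5 CPM in the same order, from 1261, 3874, 1941 and 2171 UMIs. Here the intervals of young sham (46.2 to 51.6) and aged sham (44.9 to 49.1) overlapped, so these neighbours in the order do not differ beyond counting error.

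Sln, the sarcolipin gene, was measured at 21.3 CPM in young sham beside 45.2 in young I/R, and 18.9 in aged sham beside 11.2 in aged I/R, from 550, 1793, 782 and 750 UMIs. The intervals of young sham (19.5 to 23.1) and aged sham (17.6 to 20.3) overlapped and the other values stood apart. Stard10 had 17.6 and 25.8 CPM in the young sham and I/R libraries, and 22.3 and 15.6 CPM in the aged ones, from 454, 1024, 922 and 1041 UMIs. Its young I/R value was again the highest and its aged I/R value the lowest, though that of young sham (15.99 to 19.3) overlapped that of aged I/R (14.7 to 16.6).

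The secreted factors had another order. Dkk3 was measured at 5.65 CPM in young sham against 4.97 in young I/R, and 11.7 in aged sham against 7.91 in aged I/R, from 146, 197, 483 and 528 UMIs. Both aged libraries lay above both young ones, and the intervals of young sham (4.77 to 6.65) and young I/R (4.30 to 5.71) overlapped. Bmp10 was close to the limit of detection, with 1 UMI in young sham beside 0 in young I/R, and 28 in aged sham beside 12 in aged I/R. This came to 0.0387, 0, 0.677 and 0.180 CPM, and the count of 0 in young I/R allows up to 0.0756 CPM by the floor of 3 UMIs, or 0.0930 CPM by the upper end of the exact interval. Each Bmp10 UMI came from a different barcode.

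**Figure D1:**
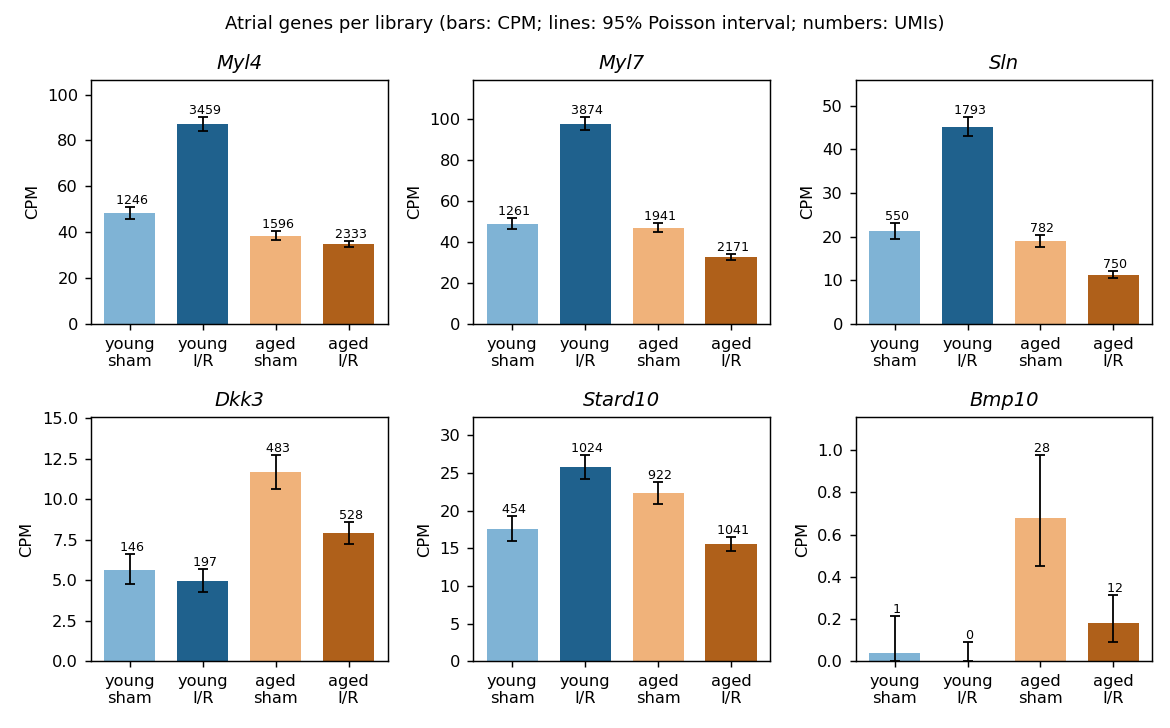
CPM of Myl4, Myl7, Sln, Dkk3, Stard10 and Bmp10 (vertical axes, each from 0) in the 4 libraries (horizontal axis), with exact Poisson 95% intervals as lines and UMIs as numbers over the bars. Myl4, Myl7, Sln and Stard10 were highest in young I/R and Dkk3 and Bmp10 in aged sham.

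After ischemia and reperfusion, the young library had a higher level of the trio of Myl4, Myl7 and Sln than young sham, with 9126 against 3057 UMIs and a summed level of 230.0 against 118 CPM. Set over young sham, the log2 ratio in young I/R came to 0.85 for Myl4 (0.76 to 0.95), 1.0005 for Myl7 (0.91 to 1.09) and 1.09 for Sln (0.95 to 1.23). The ratio for Stard10 was 0.55 (0.39 to 0.72), and for Dkk3 it was -0.19 with an interval that included 0 (-0.50 to 0.13), and it was between 0.052 and 0.28 under 3 other scalings, so it has no direction. Of the 5 genes with at least 20 UMIs over the 2 libraries, 2 were at least 2-fold higher, Sln at 2.12-fold (1.93 to 2.34) and Myl7 just past that limit at 2.0007-fold (1.88 to 2.13), beside 3.26% of the 15465 genes with that many UMIs. This count depended on the scaling: Myl4 also passed without Gm42418 and mitochondrial genes in the totals (3 of 5, beside 4.64%) and per UMI of shared cardiomyocyte genes (3 of 5, beside 5.02%), and Myl4 and Stard10 did with the median of gene-wise ratios (4 of 5, beside 7.02%). No member was 2-fold lower, beside 27% of the genes. The median log2 ratio over all these genes was -0.51, so the libraries differed in composition as a whole. Gm42418, an abundant transcript that overlaps ribosomal RNA, took 11.5% of the UMIs of young sham and 19.4% of those of young I/R. Leaving Gm42418 and mitochondrial genes out of the totals raised each log2 ratio by 0.24, less than the size of that median. What else went into the median was not tested. Relative to the other genes, Myl4, Myl7 and Sln lay above 96.1%, 96.7% and 97.1% of them, and Stard10 above 93.3%. In sums over barcodes, fewer cells of a type and less RNA per cell cannot be told apart.

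In aged mice the direction was the opposite for the trio. Aged I/R had 5254 UMIs of the 3 genes and aged sham 4319, which came to 78.7 against 104 CPM. The log2 ratio of aged I/R over aged sham was -0.14 for Myl4 (-0.24 to -0.051), -0.53 for Myl7 (-0.62 to -0.44) and -0.75 for Sln (-0.90 to -0.60). It was -0.56 for Dkk3 (-0.74 to -0.38) and -0.52 for Stard10 (-0.65 to -0.39). Bmp10 was at 0.265 of its aged sham level (0.123 to 0.539) and was by CPM the only member past 2-fold, lower, beside 3.02% of 16761 genes. Per shared cardiomyocyte UMI, Myl7, Sln and Dkk3 passed as well, so that 4 of 6 were lower, beside 11.7% of the genes. No member was 2-fold higher, beside 5.65% of them, and the median over all genes was 0.085. Myl4, Myl7 and Sln lay above 32.0%, 11.6% and 5.82% of the genes. In barcodes with at least 200 detected genes the Myl4 ratio was -0.0996, with an interval that included 0 (-0.20 to 0.0012).

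The sham libraries differed little in the trio, while Dkk3 and Bmp10 were higher in aged sham. The log2 ratio of aged sham over young sham was -0.32 for Myl4 (-0.43 to -0.21), -0.056 for Myl7 (-0.16 to 0.047) and -0.17 for Sln (-0.33 to -0.011). Per UMI of 11 genes shared by atrial and ventricular cardiomyocytes, such as Ttn, Myh6 and Tnnt2, the same ratios were -0.057, 0.21 and 0.093, so the direction for Myl7 and Sln depended on the scaling. Ttn alone held 31744 of the 81889 CPM of these 11 genes in young sham and 18041 of 68189 in aged sham. This scaling thus depends much on Ttn and is not read as a correction for cardiomyocyte content. Dkk3 was 2.07-fold higher in aged sham (1.71 to 2.50), with a log2 ratio of 1.05 that came to between 1.01 and 1.31 under every other scaling or choice of barcodes tried. Bmp10 was 17.5-fold higher, with an interval of 2.89 to 715 that rests on 1 UMI in young sham. Stard10 was 1.27-fold higher (1.13 to 1.42). Thus 2 of 6 members were at least 2-fold higher, beside 3.48% of 15875 genes, and none was 2-fold lower, beside 7.21%.

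Between the I/R libraries the trio differed most. The log2 ratio of aged I/R over young I/R was -1.32 for Myl4 (-1.40 to -1.24), -1.59 for Myl7 (-1.66 to -1.51) and -2.01 for Sln (-2.13 to -1.88). Sln was thus at 0.249 of its young I/R level, below all but 0.224% of the 16491 genes compared. Stard10 followed the trio at -0.73 (-0.85 to -0.60), and Dkk3 went the other way by CPM at 0.67 (0.43 to 0.91), above 62.5% of the genes. The Dkk3 ratio depended on the scaling. It was 0.26 with the median of gene-wise ratios (0.018 to 0.50). Per shared cardiomyocyte UMI it was 0.17, with an interval that included 0 (-0.067 to 0.42). Of the 5 members with enough UMIs, 3 were at least 2-fold lower, beside 1.58% of the genes, and none was 2-fold higher, beside 21.3%. Stard10 passed as well with the median of gene-wise ratios (4 of 5, beside 4.38%) and per shared cardiomyocyte UMI (4 of 5, beside 5.58%). Bmp10, with 12 UMIs against 0, was at least 2.38-fold higher in aged I/R when set against the floor of 3 UMIs per library, a bound without the counting error of the 12, and the lower end of the exact interval was 1.65-fold. The median over all genes was 0.47 here, opposite in sign to the trio.

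**Figure D2:**
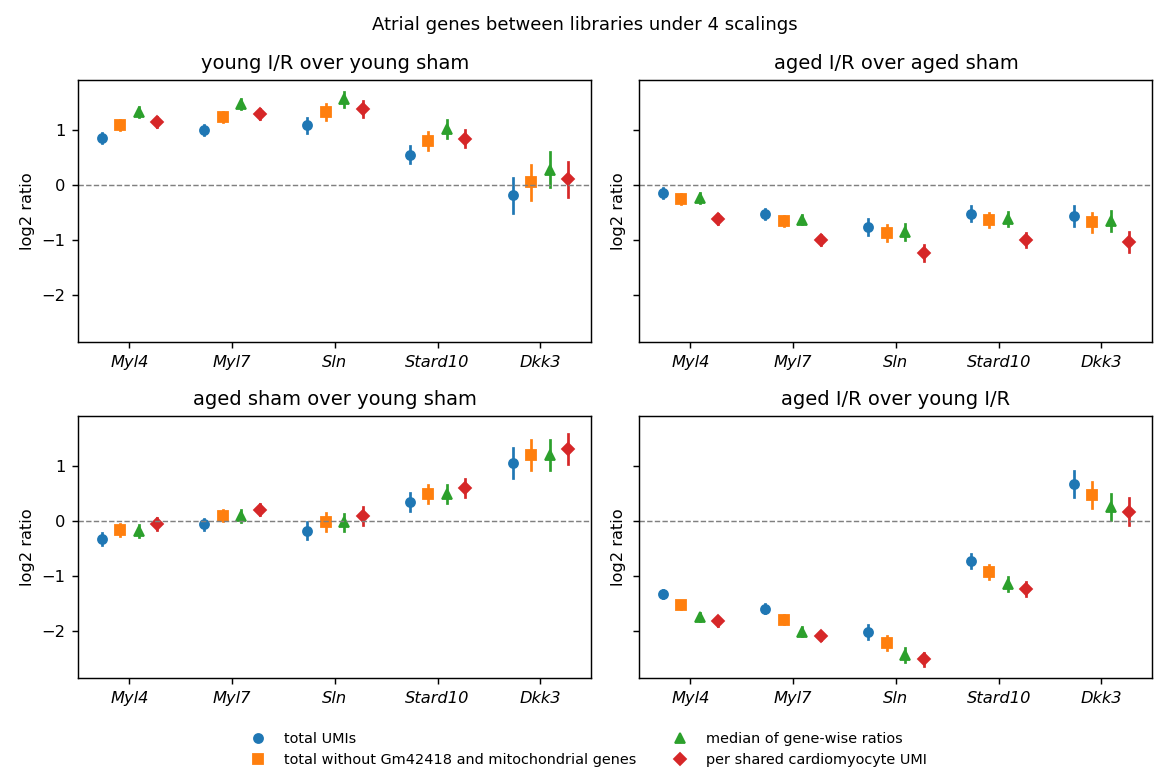
Log2 ratios (vertical axis) of 5 atrial genes (horizontal axis) in the 4 comparisons, under 4 scalings of the libraries shown by symbol and colour, with 95% counting intervals as lines. Myl4, Myl7, Sln and Stard10 were above 0 in young I/R over young sham and below 0 in both comparisons of aged I/R, under each scaling.

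The proportions of the 3 genes to one another also differed between libraries. There were 1.01 UMIs of Myl7 per UMI of Myl4 in young sham (0.935 to 1.095) against 1.12 in young I/R (1.07 to 1.17), and 1.22 in aged sham (1.14 to 1.30) against 0.931 in aged I/R (0.877 to 0.987). Sln per Myl4 was 0.441 in young sham beside 0.518 in young I/R, and 0.490 in aged sham beside 0.321 in aged I/R. The aged I/R value (0.296 to 0.349) lay below the intervals of the other 3 libraries. Sln per Myl7 was 0.436, 0.463, 0.403 and 0.345, and here the aged I/R interval (0.318 to 0.376) overlapped that of aged sham (0.370 to 0.438). These are ratios of UMIs compared between libraries and say nothing of which gene is expressed more.

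Other genes with atrial expression did not share one direction. A list of 15 such genes was used, among them Nppa (the atrial natriuretic peptide), Mybphl (a myosin binding protein), Pam (the amidating enzyme that is a main membrane protein of atrial granules), Kcnj3 and Kcnj5 (subunits of the acetylcholine-gated potassium channel), Nr2f2 (an atrial transcription factor) and Tbx5. In young I/R over young sham all 15 had at least 20 UMIs. Of these, 1 was at least 2-fold higher, Nppa at a log2 ratio of 1.66, beside 3.26% of all genes. Lower were 2, Nr2f1 at -1.25 and Cacna1d at -1.02, beside 27% of all genes. Their median was -0.11, against -0.51 over all genes. In aged I/R over aged sham none of 14 was 2-fold higher, beside 5.65% of all genes. Only Nppa was 2-fold lower, at -1.12, beside 3.02%, and the median of the list was 0.13. Between the I/R libraries Mybphl (-1.50), Nppa (-1.48) and Sbk3 (-1.02) were at least 2-fold lower in aged I/R, as the trio was. These were 3 of 15, beside 1.58% of all genes. Cacna1d was higher at 1.06, which is 1 of 15, beside 21.3%. In the sham libraries only Nppa passed 2-fold, higher in aged sham at 1.29, beside 3.48% of all genes higher and 7.21% lower.

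Ventricular genes were set beside them. In young I/R over young sham 5 of the 8 ventricular genes were at least 2-fold lower and none higher, with a median log2 ratio of -1.03, beside 27% of all genes lower, 3.26% higher and their median of -0.51, while Myl2 had 6619 and 7384 CPM and Myl3 5090.3 and 6329 in these libraries. Of the 11 shared cardiomyocyte genes none passed 2-fold, and their median was -0.12. In aged I/R over aged sham none of the ventricular genes passed 2-fold, beside 5.65% of all genes higher and 3.02% lower, and their median was -0.29. Myl2 was at -0.47 and Myl3 at -0.41 there, lower like the trio. The shared cardiomyocyte genes had a median of 0.37 but went both ways, from Actc1 at -0.76 and Tnnc1 at -0.55 to Ttn at 0.93 and Ryr2 at 1.19. Of these 11 genes only Ryr2 passed 2-fold, higher, beside the same shares of all genes. The list of fetal and stress genes, Nppb, Ankrd1, Acta1, Myh7 and Xirp2, had medians of 0.98 in the young and 0.090 in the aged comparison. In young I/R 2 of the 5 were at least 2-fold higher, beside 3.26% of all genes. In the aged comparison they went both ways, from Acta1 at -1.27 and Myh7 at -0.98 to Ankrd1 at 0.91 and Xirp2 at 0.92. There 1 of the 5, Acta1, was at least 2-fold lower, beside 3.02% of all genes.

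The barcodes that carried the trio were then examined. A Myl4 UMI was seen in 1.16% and 3.20% of the barcodes of the young sham and I/R libraries and in 1.53% and 2.45% of those of the aged ones, and at 200 UMIs per barcode in 0.898%, 1.68%, 0.787% and 0.691%. Myl7 was seen at that depth in 0.902%, 1.92%, 0.925% and 0.647% of them, and Sln in 0.423%, 0.890%, 0.376% and 0.227%. In barcodes with UMIs of at least 2 endothelial genes the Myl7 share at 200 UMIs was 0.890%, 1.89%, 0.954% and 0.634%. Their median depth was 302, 438, 469 and 799 UMIs, against 244, 374, 391 and 675 over all barcodes. Barcodes chosen in this way are not shown to be endothelial cells, since endothelial markers shared barcodes about as often as independent draws (given with the pairs of genes), so these shares do not measure the background of free RNA. In the 175 young sham barcodes with at least 2 macrophage genes the Myl7 share was 0.257%, from barcodes that held 1 UMI of the trio in all. Shares of single UMIs are not read as expression by a cell, and the joint presence of the 3 genes was described in their place.

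Myl4, Myl7 and Sln shared barcodes more often than independent draws at equal depth would give, in every library and most of all in young sham. Each barcode with at least 200 UMIs was reduced to 200 by exact calculation, and the share with both genes was divided by the product of the shares with each. For Myl4 and Myl7 this ratio was 15.2 in young sham (13.0 to 17.6) against 2.28 in young I/R (2.02 to 2.56), and 3.86 in aged sham (3.15 to 4.69) against 1.94 in aged I/R (1.58 to 2.36). For Myl4 and Sln it was 14.9 (12.0 to 18.3), 2.51 (2.13 to 2.94), 3.31 (2.39 to 4.48) and 1.51 (1.07 to 2.06) in the same order. For Myl7 and Sln it was 15.2 (12.3 to 18.6), 2.66 (2.27 to 3.09), 4.92 (3.78 to 6.31) and 2.18 (1.58 to 2.94). Each of these intervals lay above 1. They are Poisson intervals of the number of barcodes with both genes before reduction, scaled to the ratio, and omit error in the expectation. They may therefore be too narrow where few such barcodes remain at 200 UMIs. For Myl4 and Sln in aged I/R, 39 barcodes held both genes before reduction, and 0.00236% of barcodes did at 200 UMIs. The pairs had the same order of libraries in this ratio, namely young sham, aged sham, young I/R and aged I/R from the highest down. The intervals of young I/R and aged I/R overlapped for Myl4 with Myl7 and for Myl7 with Sln. Those of aged sham and young I/R overlapped for Myl4 with Sln. By the undivided share with both genes, young I/R lay above aged sham for each pair, for Myl4 and Myl7 at 0.0738% against 0.0281%.

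Pairs of other genes showed what the same calculation gives elsewhere. Myl2 and Myl3, the ventricular light chains, gave 1.03, 1.003, 1.003 and 1.01, and Tnnt2 and Tnni3, subunits of cardiac troponin, between 0.998 and 1. Col1a1 and Col3a1, both collagens of fibroblasts, gave 1.23, 1.20, 1.22 and 1.22, and the endothelial pair of Cdh5 and Pecam1 1.02, 0.989, 1.08 and 1.08. The ratio cannot exceed 1 over the larger of the 2 shares, which for the cardiomyocyte pairs was between 1.18 and 1.44, so these could not have reached the values of the trio. The collagen and endothelial pairs, with shares of 0.639% to 2.73%, had no such limit. Myl7 and Myl2, under the same limit, gave 0.987, 0.995, 0.999 and 1.01. Myl7 did not share barcodes beyond expectation with the fibroblast gene Col3a1 (1.04, 1.15, 0.985 and 0.859, the last with an interval below 1, 0.742 to 0.989). With Cdh5 it gave 0.708, 0.912, 1.45 and 0.906, of which the aged sham value lay above 1 (1.13 to 1.82), and with the hemoglobin gene Hbb-bs 1.25, 1.01, 0.961 and 0.978, of which that of young sham lay above 1 (1.09 to 1.43).

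**Figure D3:**
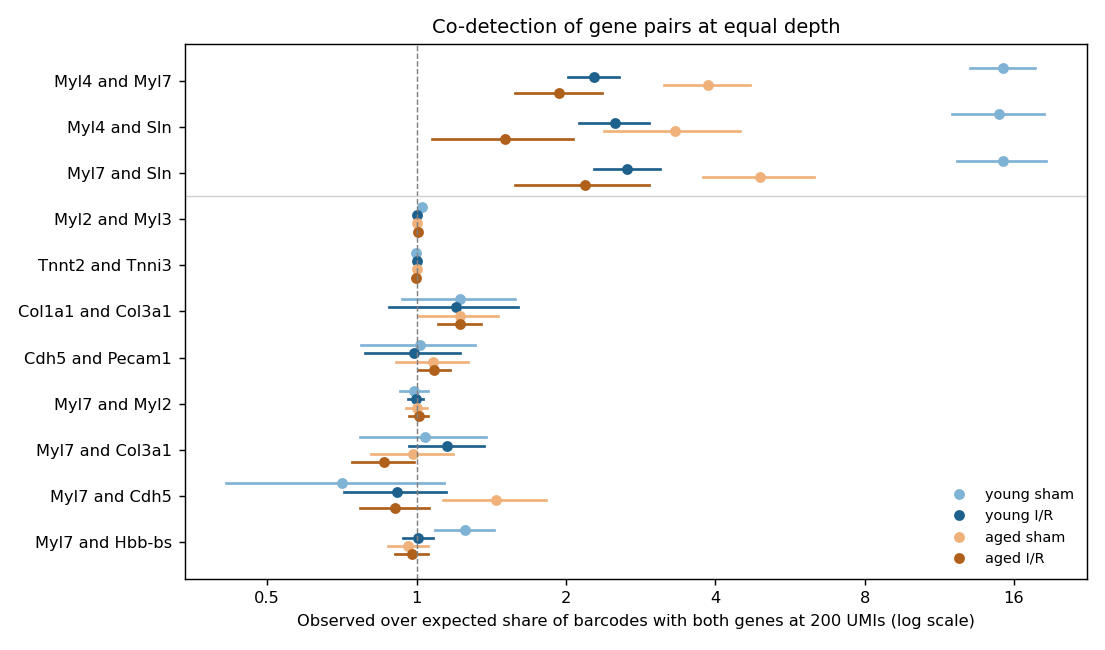
Observed over expected share of barcodes with both genes of a pair at 200 UMIs (horizontal axis, log scale) for 11 pairs (vertical axis) in the 4 libraries (colours), with 95% Poisson intervals of the number of barcodes as lines and independence as the dashed line at 1. The 3 atrial pairs at the top reach 14.9 to 15.2 in young sham and lie above 1 in every library, and most other pairs lie near 1.

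The number of barcodes with at least 2 of the 3 genes was 274 in young sham beside 518 in young I/R, and 178 in aged sham beside 157 in aged I/R. Independence within strata of barcodes of like depth would give 28.1, 255, 57.3 and 94.9, so 246, 263, 121 and 62.1 barcodes stood above expectation, or 267, 256, 120 and 68.1 per 100000. All 3 genes were present in 43, 42, 14 and 12 barcodes, where 0.110, 2.68, 0.272 and 0.558 would be expected. At 200 UMIs per barcode, at least 2 genes were found in 194, 147, 51.4 and 13.9 per 100000 barcodes, with 15.6, 63.9, 13.7 and 7.48 expected. The young libraries therefore had more barcodes above expectation than the aged ones by either count, and the aged I/R library had the fewest. Young sham and young I/R were close in the first count (267 and 256) and not in the second, where the excess was 179 against 83.4. Barcodes under 200 UMIs were left out of the second count, and these were 25914 in young sham against 4608 in young I/R, and 4424 in aged sham against 0 in aged I/R.

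Young sham also held the barcodes with the most UMIs of these genes, although it was the shallowest library. At least 5 UMIs of the trio were found in 48 of its barcodes, against 11 in young I/R and 9 in each aged library, and the highest sum in a barcode was 15, 8, 7 and 10. Barcodes with 3 or more UMIs of Myl4 numbered 39, 12, 5 and 11, those of Myl7 37, 20, 13 and 10, and those of Sln 9, 5, 2 and 1. The median depth of barcodes with at least 2 of the trio was 352, 448.5, 451 and 923 UMIs, above that of all barcodes in each library. When the barcodes were split by depth into 4 groups of equal size, the summed trio level ran from 101 CPM in the shallowest to 123 in the deepest group of young sham, from 226 to 229 in young I/R, from 110 to 92.8 in aged sham and from 75.5 to 76.8 in aged I/R.

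The higher level of the trio in young I/R lay outside the barcodes with at least 2 of the 3 genes. On the CPM scale of the whole library, barcodes with at least 2 of the trio contributed 34.8 CPM in young sham (32.5 to 37.1) beside 30.9 in young I/R (29.2 to 32.7), and 10.6 in aged sham (9.62 to 11.6) beside 5.90 in aged I/R (5.33 to 6.51). All other barcodes contributed 83.6 in young sham (80.1 to 87.2) against 199 in young I/R (195 to 204), and 93.8 in aged sham (90.9 to 96.8) against 72.8 in aged I/R (70.8 to 74.9). Young I/R over young sham was thus 0.890 in the first part (0.816 to 0.971) and 2.38 in the second (2.27 to 2.50). The sham libraries differed in the first part, with aged sham at 0.305 of young sham (0.271 to 0.342), and hardly in the second, at 1.12 (1.07 to 1.18). Aged I/R was below aged sham in both, at 0.557 (0.485 to 0.640) and 0.776 (0.743 to 0.809). The first part held 29.4% of the trio UMIs in young sham beside 13.4% in young I/R, and 10.1% in aged sham beside 7.50% in aged I/R. The split uses the counted UMIs themselves and is a description. Deeper barcodes reach 2 genes more easily, so the depth of the libraries moves with this split, and its part in the values was not tested. Independent draws would give 255 of the 518 barcodes of the first part in young I/R and 28.1 of the 274 in young sham. The first part is therefore not made up alike in these libraries.

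**Figure D4:**
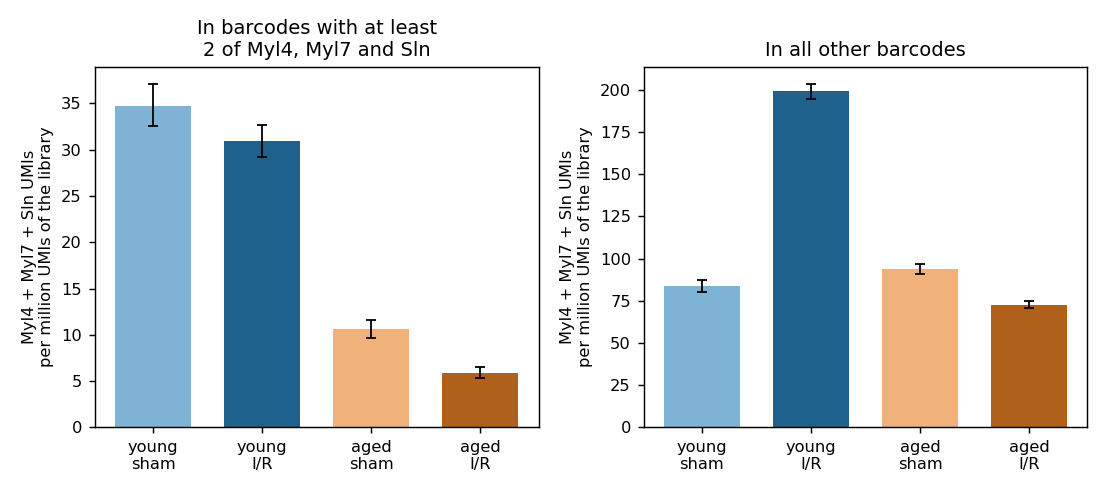
UMIs of Myl4, Myl7 and Sln as CPM of the whole library (vertical axes, on different scales from 0) in barcodes with at least 2 of the 3 genes (left) and in all other barcodes (right), by library, with 95% Poisson intervals. Young I/R (30.9) was below young sham (34.8) on the left and above it (199 against 83.6) on the right.

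Each gene of the trio was enriched in barcodes chosen by the other pair. In young sham, Sln was at 904 CPM in the 176 barcodes with Myl4 and Myl7 and at 14.8 CPM in barcodes with neither, a ratio of 60.9 (45.6 to 80.2). The same ratio for Sln was 9.05 in young I/R (6.64 to 12.1), and 20.7 in aged sham (12.2 to 32.9) against 12.2 in aged I/R (6.47 to 21.0). Myl4 in barcodes with Myl7 and Sln gave 75.9, 8.54, 14.3 and 13.0, and Myl7 in barcodes with Myl4 and Sln gave 65.8, 7.49, 18.9 and 17.2. Within a library, the ratios of Sln, Myl4 and Myl7 all rest on the same barcodes with the whole trio. These barcodes numbered 43, 42, 14 and 12. The ratios therefore restate the shared barcodes described above and are no independent support. The level in barcodes with neither gene also differed between libraries: for Myl7 it was 35.7 CPM in young sham against 90.6 in young I/R, and 43.6 in aged sham against 31.2 in aged I/R.

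The other members were partly found with the trio. Dkk3 was at 76.2 CPM in barcodes with at least 2 of the trio and 5.36 in the others of young sham, a ratio of 14.2 (6.02 to 28.8). In the other libraries the ratio was 3.37 in young I/R (0.909 to 8.77), and 6.80 in aged sham (2.72 to 14.1) against 5.69 in aged I/R (2.28 to 11.8), from 8, 4, 7 and 7 UMIs in those barcodes. Stard10 had ratios of 7.23 in young sham (3.82 to 12.5) beside 2.75 in young I/R (1.59 to 4.42), and 1.51 in aged sham (0.311 to 4.42) beside 1.63 in aged I/R (0.444 to 4.20), from 13, 17, 3 and 4 UMIs. Both aged intervals of Stard10 included 1. No Bmp10 UMI of any library lay in a barcode with at least 2 of the trio, and so few UMIs cannot show a difference (the interval in aged sham reached up to 65.1). Dkk3 and Stard10 themselves were seen together in 4, 1, 3 and 5 barcodes, where 0.787, 2.23, 4.88 and 6.63 would be expected at like depth. Outside the trio barcodes Dkk3 was at 11.5 CPM (aged sham) and 7.82 CPM (aged I/R) against 5.36 and 4.90 in the young libraries. The trio barcodes held only 0.217% to 0.614% of the UMIs of a library. A gene spread evenly over all UMIs would lie nearly all outside them, so this does not show where Dkk3 is expressed.

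Genes outside the trio were ranked over the 4 libraries by a lower bound, which favours abundant genes with narrow intervals. Of the 13421 genes with at least 20 UMIs in every library, 19 were at least 2-fold higher in the trio barcodes of all 4 libraries, which is 0.142%, and Dkk3 was among them. By the lower end of the interval in the library where it was lowest, Nppa came first, with ratios of 19.4 in young sham (17.9 to 21.0) against 3.05 in young I/R (2.83 to 3.27), and 2.74 in aged sham (2.37 to 3.15) against 3.97 in aged I/R (3.48 to 4.52). Gpx3, a secreted glutathione peroxidase, came second with 3.60, 2.17, 2.79 and 2.03. Clu, the gene of the secreted chaperone clusterin, was next with 2.42, 1.33, 1.44 and 1.25, and its aged I/R interval included 1 (0.991 to 1.56). Mybphl was ninth with 56.6, 4.52, 9.53 and 7.84, from 15, 5, 2 and 2 UMIs. Its ratios were above those of Nppa in each library, and its aged I/R interval included 1 (0.938 to 29.0). Most of the other genes among the first 15 were common to all cardiomyocytes and close to 1, such as Tnni3 (1.24, 1.06, 1.06 and 1.05), Actc1 (1.23, 1.04, 1.04 and 1.09), Mb, Atp2a2, Myh6, Tnnt2, Tpm1 and Tcap, together with Atp5k, mt-Co1 and Cox6c. Dkk3 was 17th and Stard10 1458th. The trio barcodes were 9.75, 2.03, 3.11 and 1.65 times as many as independent draws would give. Ratios in them are therefore not compared between libraries as expression.

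At the other end, ranked by the upper end of the interval in the library where it was highest, were genes close to 1 or slightly below it. These were Gm42418 (0.889, 0.946, 0.959 and 0.908), AY036118, Malat1, Myl2 (0.925, 0.985, 0.952 and 0.951) and mt-Co2. Malat1 was at 1.007 in aged I/R and mt-Co2 at 1.0003 in young I/R. This ranking favours abundant genes with narrow intervals, so these need not be the genes lowest in the trio barcodes. Myl3 gave 0.930, 0.970, 1.0006 and 1.07. The ventricular list as a whole was at 0.933 in young sham (0.887 to 0.981) beside 0.978 in young I/R, and 0.983 in aged sham beside 0.989 in aged I/R. As counted, barcodes with at least 2 of the trio had nearly the same level of ventricular light chains as other barcodes. Independent draws would give 28.1, 255, 57.3 and 94.9 of these 274, 518, 178 and 157 barcodes, which draws ratios toward 1. The ratios are therefore not read as expression of ventricular light chains by cells with the atrial genes.

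**Figure D5:**
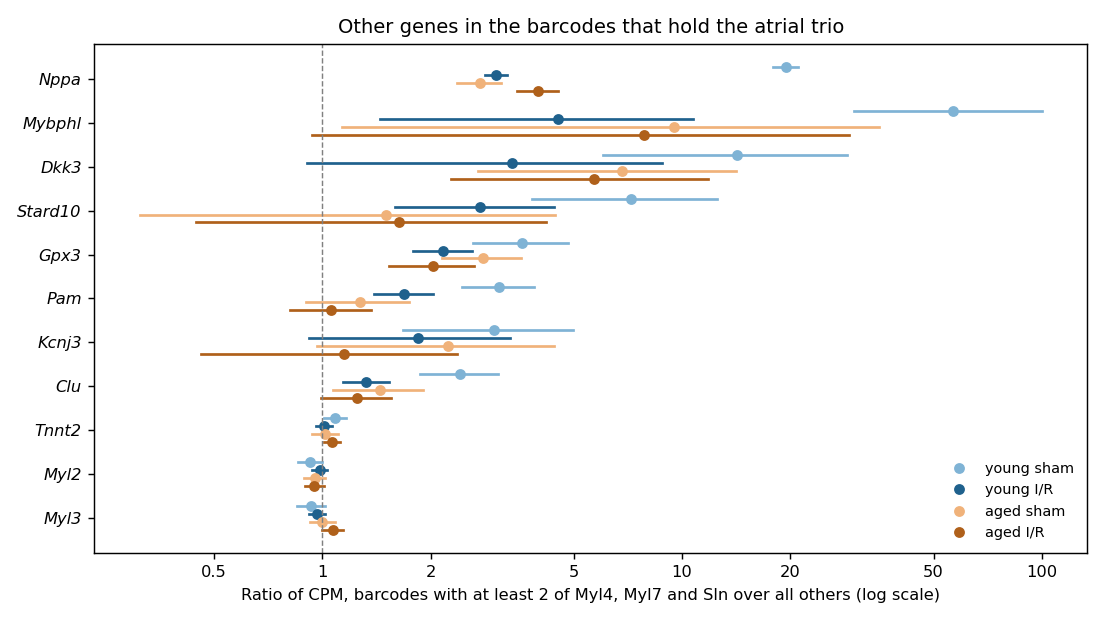
Ratio of CPM in barcodes with at least 2 of Myl4, Myl7 and Sln over all other barcodes (horizontal axis, log scale) for 11 genes (vertical axis) in the 4 libraries (colours), with 95% conditional binomial intervals as lines. Nppa lies above 1 in every library, Dkk3 and Mybphl are high with wide intervals, and Tnnt2, Myl2 and Myl3 lie near 1.

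The list of 15 other atrial genes was raised in the trio barcodes, at 9.24 in young sham (8.59 to 9.93) against 2.58 in young I/R (2.41 to 2.75), and 2.17 in aged sham (1.92 to 2.45) against 2.28 in aged I/R (2.05 to 2.53). Nppa made up most of it, and without Nppa the ratios were 2.78 (2.34 to 3.28), 1.53 (1.31 to 1.77), 1.33 (1.03 to 1.70) and 1.27 (1.05 to 1.51). In young sham 6 of the 15 had intervals above 1, beside 2.13% of all 14210 genes there: Nppa, Mybphl, Sbk2 and Sbk3 (both kinases of striated muscle), Kcnj3 and Pam. In the other libraries, in the order used throughout, the numbers were 3, 3 and 2, beside 1.76%, 1.28% and 1.72% of the genes, and no gene of the list lay below 1. Pam had ratios of 3.10, 1.69, 1.27 and 1.06, and Kcnj3 3.00, 1.85, 2.24 and 1.15. The atrial transcription factor genes Nr2f2 and Tbx5 had intervals that included 1 in every library.

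Most lists for other cells had intervals that included 1 there. Fibroblast genes were at 0.964, 1.24, 1.16 and 1.11 of their level in the other barcodes, with the young I/R interval above 1 (1.04 to 1.47), and endothelial genes at 0.777, 0.968, 0.967 and 0.989, with that of young sham below 1 (0.640 to 0.935). Mural, macrophage, neutrophil, endocardial and Schwann cell lists had intervals that included 1 in all 4 libraries. Genes of the sinus node and conduction system were at 2.40 in young sham (1.27 to 4.12) from 13 UMIs, and at 0.653, 2.09 and 1.24 elsewhere, with intervals that included 1. Skeletal muscle genes gave 2.20, 1.14, 1.67 and 1.84 from 4 to 8 UMIs, and mesothelial genes had 3, 3, 0 and 0 UMIs, all with intervals that included 1. Adipocyte and lung epithelial genes had 0 UMIs in these barcodes, and their summed level in a whole library was at most 1.54 CPM. Fetal and stress genes were at 0.917, 1.01, 0.971 and 0.997. Shared cardiomyocyte genes were at 1.06 in young sham (1.04 to 1.08) and at 1.005, 1.01 and 1.02 elsewhere, and red cell genes at 1.002, 0.929, 1.20 and 0.831, where the last was below 1 (0.696 to 0.985) and that of aged sham above (1.03 to 1.39).

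The counts were also read from the other side, with barcodes chosen by other genes, which uses the same joint barcodes and is no independent support. In barcodes with UMIs of at least 2 of the 15 other atrial genes, the trio was at 783 CPM in young sham beside 329 in young I/R, and 134 in aged sham beside 91.7 in aged I/R, against 102, 223, 102 and 76.4 in the others. The ratios were 7.71 (6.99 to 8.49), 1.47 (1.38 to 1.58), 1.32 (1.19 to 1.45) and 1.20 (1.12 to 1.29). In barcodes with Dkk3 they were 9.05 (6.68 to 12.0), 1.40 (0.932 to 2.03), 1.93 (1.40 to 2.58) and 1.85 (1.43 to 2.36), and in barcodes with Stard10 4.70 (3.70 to 5.88), 1.84 (1.58 to 2.14), 1.71 (1.35 to 2.15) and 1.19 (0.942 to 1.49). Barcodes chosen by endothelial genes had the trio at 1.07, 1.004, 0.984 and 1.01 of its level elsewhere, those chosen by fibroblast genes at 0.805, 1.11, 1.09 and 1.04, and those chosen by mural genes at 0.877, 0.867, 0.988 and 1.02, all with intervals that included 1. Barcodes chosen by macrophage genes were at 0.123 in young sham (0.00310 to 0.684), from 1 UMI of the trio in 175 barcodes, and at 1.26, 0.730 and 1.20 elsewhere, with intervals that included 1. Barcodes chosen by red cell genes were at 1.32 in young sham (1.14 to 1.52) and between 0.985 and 1.02 in the other libraries.

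Leaving out barcode sequences that occurred in more than 1 library changed these results little. Among the barcodes with at least 2 of the trio, 6.93%, 7.92%, 6.74% and 7.64% also occurred in another library, close to the share over all barcodes. Without them the summed trio log2 ratio was 0.97 in young I/R over young sham, -0.40 in aged I/R over aged sham, -0.17 in aged sham over young sham and -1.54 in aged I/R over young I/R, against 0.96, -0.41, -0.18 and -1.55 with them. Over the 3 pairs together, co-detection over expectation was 15.4, 2.42, 4.05 and 1.90 without them and 15.1, 2.43, 4.01 and 1.90 with them.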

How the data were processed

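The authors aligned reads to the mouse genome mm10 with Cell Ranger 6.0.2 and deposited its matrices, which hold unscaled UMI counts for each gene in each barcode. Whether the counting used strand was not given in the sources used here. Barcodes were used as deposited, without a filter, clusters or the names of the authors. Neither empty droplets nor doublets were called, so a barcode may hold no cell, and a barcode with several genes may hold more than 1. UMIs were summed per library and divided by the total. Co-detection was calculated by the exact hypergeometric expectation at 200 UMIs per barcode, leaving out shallower barcodes, or within depth strata in steps of 10%. Ratios in barcodes with at least 2 of Myl4, Myl7 and Sln left those 3 genes out of the totals. The confidence level was 95%, and the floor was 3 UMIs. The intervals cover counting error only, and barcodes are not replicates.

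The genes, the 17 gene lists and the tests were chosen with earlier results of these data known. Named genes are the 6 members, list genes where a list is described, the 15 genes with the highest lower bound over the 4 libraries of the ratio in those barcodes, and the 5 at the other end, among genes with at least 20 UMIs in each library. Calculations ran in Python 3.11.15 (numpy 2.4.6, scipy 1.17.1, matplotlib 3.10.9, pandas 2.3.3), and the calculations were tested on simulated data. Promoters were from RefSeq (GRCm38.p6) and gene positions from GENCODE on GRCm38. Alternatives were 3 other scalings, a minimum of 200 detected genes per barcode, barcodes found in 1 library only, 300 UMIs or all UMIs, all 3 genes or Myl4 with Myl7, weighting by depth, and a minimum of 5 UMIs per gene. The trio outside barcodes with at least 2 of it was added after seeing the data.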

Additional observations from a re-analysis of the deposited data

Results flagged for a closer look

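The I/R over sham ratio had opposite signs in young and aged mice for the summed trio and for 4 of the members. How many of all genes had opposite signs was not counted, so these 4 members are not read as unusual. The ventricular light chain genes had the same signs, Myl2 at 0.16 in the young and -0.47 in the aged comparison, and Myl3 at 0.31 and -0.41. The ventricular gene Pln was lower in both, at -0.60 and -0.18. On the log2 scale, young minus aged, the gap was 1.37 for the trio, 0.998 for Myl4, 1.53 for Myl7, 1.84 for Sln and 1.07 for Stard10. Dkk3 was at -0.19 in the young comparison, where its direction depended on the scaling, and at -0.56 in the aged one. Each condition has 1 library, so the difference between the ages was not tested, and the composition of the young libraries as a whole moved with it (median log2 ratio of all genes -0.51 in the young and 0.085 in the aged comparison).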

How the results depend on the processing

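No paired analysis was possible because each condition has 1 library and no result comes from a test, and for the same reason no library could be left out. Set over young sham, the summed trio log2 ratio in young I/R was 0.96 and became 1.43 with the median of gene-wise ratios, 1.20 without Gm42418 and mitochondrial genes, 1.25 per shared cardiomyocyte UMI and 1.26 outside barcodes with at least 2 of the trio (chosen after seeing the data). For aged I/R over aged sham it was -0.41 and became -0.50, -0.52 and -0.88 under the first 3. For aged I/R over young I/R it was -1.55 and became -1.96, -1.74, -2.05 and -1.46. For aged sham over young sham it was -0.18 and became -0.032 and -0.023 under the first 2 and -0.27 with at least 200 detected genes, and it changed sign per shared cardiomyocyte UMI (0.084) and outside the trio barcodes (0.16). There Sln changed sign as well (0.093 and 0.18), and Myl4 outside the trio barcodes (0.034), all with intervals that included 0. Myl7, at -0.056 by CPM with an interval that included 0, became 0.21 (0.10 to 0.31) and 0.27 (0.16 to 0.39). By construction the choice outside the trio barcodes removes more from young sham, and otherwise the cause was not tested.

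Co-detection of the trio pairs in young sham was 15.1 and became 12.7 in depth strata and 19.4 with at least 200 detected genes. The share of barcodes with at least 2 of the trio, at 200 UMIs 0.194%, 0.147%, 0.0514% and 0.0139% in the order young sham, I/R, aged sham, I/R, was 0.428%, 0.311%, 0.107% and 0.0296% at 300 UMIs and 0.297%, 0.503%, 0.177% and 0.172% with all UMIs. In the last, young I/R was above young sham. With all 3 genes it was 0.0216%, 0.00478%, 0.00181% and 0.000188%. Bmp10, Dkk3 and Stard10 together were 3.25 and 2.97 times higher in the trio barcodes of aged sham and aged I/R. In the 14 and 12 barcodes with all 3 genes these ratios were 7.91 (0.957 to 28.6) and 9.40 (1.94 to 27.5). In young sham and young I/R they were 8.88 and 2.85, and 7.16 (1.47 to 21.0) and 3.03 (0.366 to 11.0) with all 3 genes. The intervals with all 3 genes are too wide to show a rise. Bmp10 had at most 28 UMIs in a library.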

Other observations

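Further genes were at least 2-fold higher in the trio barcodes of all 4 libraries, and those that follow were named after their values were seen. Hamp, the gene of the iron hormone hepcidin, had ratios of 43.3 and 3.07 in young sham and I/R, and 44.4 and 2.06 in aged sham and I/R, from 3, 4, 5 and 1 UMIs in those barcodes. Fgf12, which encodes a fibroblast growth factor homologous factor that binds sodium channels, had 40.9, 2.14, 14.4 and 13.4 from 4, 1, 1 and 2 UMIs. Aldh1b1, a mitochondrial aldehyde dehydrogenase gene, had 7.09, 2.54, 3.42 and 2.28 from 5, 3, 2 and 2 UMIs. For each of these genes the interval included 1 in at least 1 library.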
